A study of Mus musculus with 44 samples.

Results

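Slow-twitch muscle fibres contract slowly and resist fatigue, and they are built from their own set of contractile and calcium-handling proteins. The genes described here are 9 genes of that set, Tnnc1, Tnni1, Tnnt1, Myh7, Myl2, Myl3, Atp2a2, Casq2 and Tpm3, followed through bleomycin injury and recovery of mouse skin. They are 9 of the 43411 genes in the table of this series, all 9 passed the filter on low values, and they were compared with Myh4, the heavy chain of the fastest fibres, as a measure of how much muscle each biopsy held. The list was chosen with the levels of these genes after recovery already known, so their differences from saline, and every difference that involves a recovery group, are given as descriptions without a p-value. The comparison of 4 with 2 weeks of bleomycin is the one in which the genes were tested.

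The study followed skin fibrosis and its resolution in wild-type C57Bl/6 female mice that were 8 weeks old at the start. Bleomycin, a DNA-damaging drug that scars skin, was injected daily under the back skin in 100 µL at 1 U/mL as the labels give it (1 passage of the study's supplement gives a lower concentration, and this was not settled). RNA from a piece of back skin of each of 44 mice was sequenced after poly-A selection. There were 10 mice given saline, 10 given bleomycin for 2 weeks, 10 given it for 4 weeks, and mice left to recover after 4 weeks of bleomycin for 6 weeks (n = 6) or for 10 weeks (n = 8). The length of the saline treatment is not given in the sources used here, so age and time after injection cannot be told apart from recovery. Each biopsy is whole skin with an unknown amount of the muscle sheet beneath it, and in such bulk samples fewer cells of a type cannot be told apart from less RNA per cell.

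A thin sheet of skeletal muscle, the panniculus carnosus, lies under mouse back skin and is made mostly of fast fibres. In a fibre, calcium released from the sarcoplasmic reticulum binds troponin C, the troponin complex moves tropomyosin off actin, and myosin heads then pull. Slow and fast fibres use different gene copies for nearly every one of these parts, among them Tnnc1 and Tnnc2 for troponin C, Myl2 and Mylpf for the regulatory light chain, and Myh7 and Myh4 for the heavy chain. Several slow genes are also the heart's forms, and some slow forms are made by regenerating or denervated fast fibres.

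Reads recovered from the deposited gene counts came to 8509094 to 15285577 per mouse, with a median of 11310008. These are reads assigned to genes, and the study reports a higher average number of sequenced reads. All 9 slow genes, Myh4 and the other fast genes were read in every group. Among the heart genes, Myh6, Nppa and Myl7 were at 0 in every saline mouse, and the highest value of Myh6 in any mouse was 6.48 normalized counts. The other heart genes of the list were read in saline skin. Saline medians were 36.7 for Tnni3, 42.4 for Tnnt2, 53.7 for Myl4 and 4.21 for Nppb. One mouse stood apart from all others: mouse 2 of the 10-week recovery group held the highest count of 7 of the 9 genes among the 44 mice (all but Casq2 and Tpm3). Every 10-week difference of the 9 genes from saline is therefore given with and without it. Gene counts use overlapping annotation: 1128 exon bases of Myh7 are shared with antisense transcripts that include Mhrt, 60 of Myl2 with Ccdc63 and 83 of Atp2a2 with Gm43361. The strand setting of the counting is not given in the sources used here. Tnnc1 lies within the span of Nisch on the opposite strand but shares no exon with it.

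Upstream regions of 4 genes are printed first, since their genes followed different courses: Tnnc1, Tnni1 and Casq2 were higher already after 2 weeks of bleomycin, while Myh7 was not. Each is the 250 bases before the RefSeq start in GRCm38.p6, 5′ to 3′ on the gene's strand. Capitals mark E-boxes (CANNTG, read by the MyoD family of muscle factors), MCAT elements (CATTCC or its reverse GGAATG, read by TEAD factors) and MEF2 sites. A CArG box, the site of serum response factor, was searched as well, and both strands were read for every motif. The window of Tnni1 lies inside the annotated span of the gene, which has earlier starts.
Tnnc1 (chr14:31208062-31208311, plus strand): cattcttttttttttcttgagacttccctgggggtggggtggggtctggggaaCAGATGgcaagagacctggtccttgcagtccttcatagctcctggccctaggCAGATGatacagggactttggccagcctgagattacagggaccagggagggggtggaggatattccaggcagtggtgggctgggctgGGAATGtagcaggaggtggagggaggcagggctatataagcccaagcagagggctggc
Tnni1 (chr1:135799171-135799420, plus strand): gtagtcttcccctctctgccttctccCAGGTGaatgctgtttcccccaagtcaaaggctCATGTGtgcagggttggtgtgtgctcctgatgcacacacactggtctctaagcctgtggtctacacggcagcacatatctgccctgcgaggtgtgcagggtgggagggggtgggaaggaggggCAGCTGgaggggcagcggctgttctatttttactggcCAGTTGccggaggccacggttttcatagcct
Casq2 (chr3:102086165-102086414, plus strand): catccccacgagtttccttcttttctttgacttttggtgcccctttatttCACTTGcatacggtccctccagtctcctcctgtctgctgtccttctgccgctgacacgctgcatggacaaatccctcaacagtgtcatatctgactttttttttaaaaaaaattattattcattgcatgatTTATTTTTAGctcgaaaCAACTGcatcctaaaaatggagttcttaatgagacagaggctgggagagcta
Myh7 (chr14:54994627-54994876, minus strand): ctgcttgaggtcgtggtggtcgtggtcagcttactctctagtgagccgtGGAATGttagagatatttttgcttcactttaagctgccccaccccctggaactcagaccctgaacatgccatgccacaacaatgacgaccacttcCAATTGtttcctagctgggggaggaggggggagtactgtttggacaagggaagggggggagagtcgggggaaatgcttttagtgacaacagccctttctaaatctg
Tnnc1 held 2 E-boxes and 1 MCAT element, Tnni1 held 4 E-boxes, Casq2 held 2 E-boxes and 1 MEF2 site, and Myh7 held 1 E-box and 1 MCAT element. Of 32851 RefSeq windows of this length, 66.2% held an E-box, 12.6% an MCAT element, 2.92% a MEF2 site and 1.47% a CArG box. Tnnt1, which was also higher at 2 weeks, held 1 E-box, as many as Myh7. All 8 windows found for the slow genes held at least 1 E-box, although that of Myl2 lies 7762 bases from the nearest GENCODE start. Myl3 was the gene whose window held a CArG box, beside 2 MCAT elements. None of these matches was tested as a binding site.

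The troponin genes were scarce in saline skin and higher at every later stage. Tnnc1 encodes slow troponin C, the calcium sensor of the thin filament (chromosome 14, 31208312 to 31211729, GRCm38, plus strand, ENSMUSG00000091898.6). Its normalized counts (lowest, median and highest) were 0, 10.2 and 37.6 in saline mice, 44.5, 89.3 and 198 after 2 weeks of bleomycin, and 161, 218 and 643 after 4 weeks. After recovery they were 59.7, 172 and 314 at 6 weeks and 46.9, 89.6 and 1687 at 10 weeks, where the highest value without mouse 2 was 333. Tnnc1 was the gene of the 9 whose values in all 4 later groups lay above those of every saline mouse. On the log2(normalized count + 1) scale it differed from saline by 3.51 ± 0.56 (SE) and 5.22 ± 0.56 after 2 and 4 weeks of bleomycin, and by 4.37 ± 0.65 and 4.27 ± 0.60 (3.77 without mouse 2) in the 6-week and 10-week recovery groups. In 3 of the 10 saline mice it had no more than 3 reads, so its fold is set in part by the added count of 1, and the ratio of group means was 7.26 at 2 weeks and 24.8 at 4 weeks.

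Tnni1 encodes slow troponin I, the subunit that blocks contraction at rest (chromosome 1, 135779434 to 135810989, plus strand). Its counts were 2.29, 15.9 and 38.2 with saline, 37.5, 89.8 and 189 at 2 weeks of bleomycin, and 126, 185 and 547 at 4 weeks. At 6 weeks of recovery they were 26.9, 78.4 and 156, and at 10 weeks 29.2, 50.4 and 776 (180 without mouse 2). After 4 weeks of bleomycin no mouse overlapped the saline range, whereas both recovery groups reached down into it. The differences from saline were 2.61 ± 0.44, 4.00 ± 0.44, 2.41 ± 0.51 and 2.44 ± 0.47 in that order of groups, and the last was 1.97 without mouse 2.

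Tnnt1 encodes slow troponin T, which ties the complex to tropomyosin (chromosome 7, 4504570 to 4516382, minus strand). It was read at 30.3, 81.4 and 163 normalized counts in saline mice, at 115, 213 and 373 after 2 weeks and at 176, 467 and 1297 after 4 weeks of bleomycin. Recovery mice held 223, 425 and 876 at 6 weeks and 119, 283 and 2237 at 10 weeks (710 without mouse 2). Unlike Tnni1, it was about as high at 6 weeks of recovery as after 4 weeks of bleomycin, with a difference of -0.06 ± 0.42 between them. Against saline it differed by 1.60 ± 0.36, 2.76 ± 0.36, 2.70 ± 0.42 and 2.35 ± 0.39, the last being 1.97 without mouse 2.

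**Figure D1:**
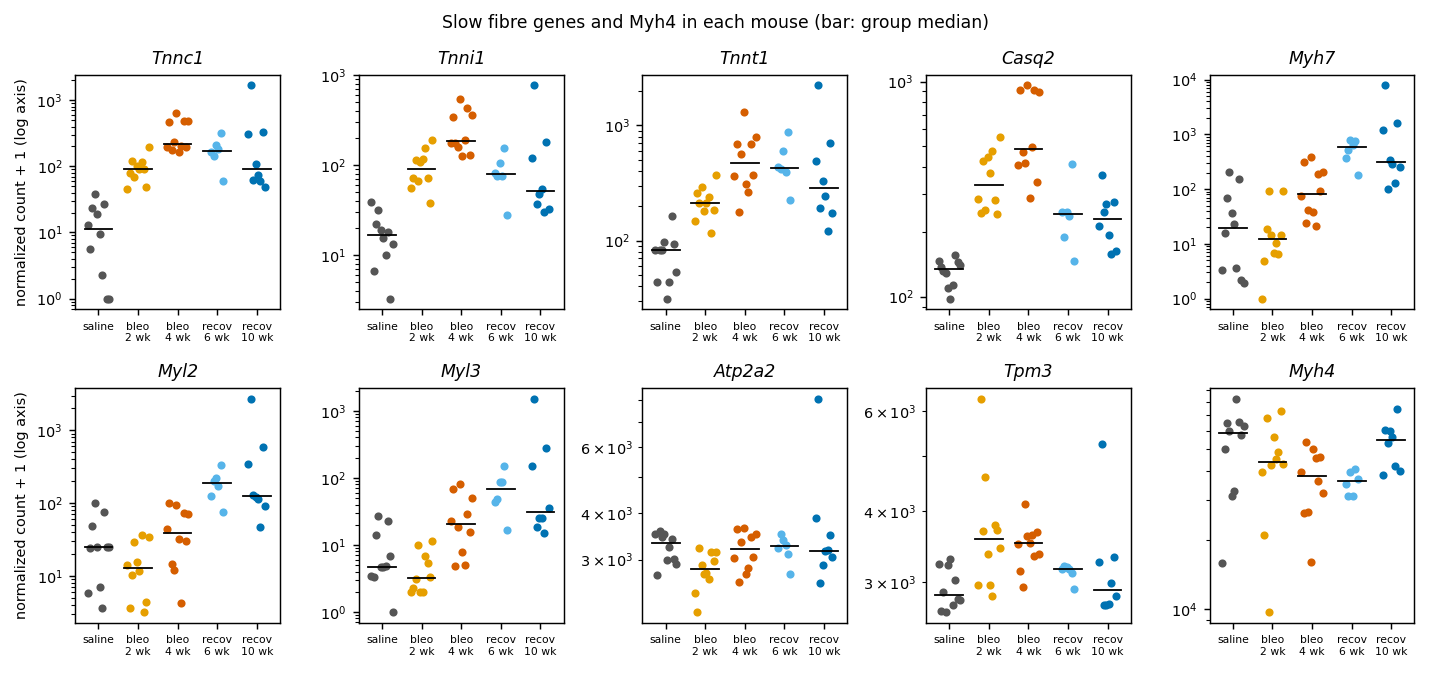
Normalized count plus 1 of the 9 slow fibre genes and of Myh4 in each of the 44 mice, on log axes, with a bar at each group median. Tnnc1, Tnni1, Tnnt1 and Casq2 have their highest median after 4 weeks of bleomycin, Myh7, Myl2 and Myl3 after 6 weeks of recovery, and Atp2a2, Tpm3 and Myh4 move little, with mouse 2 of the 10-week group at 7898 for Myh7.

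Casq2 stores calcium in the sarcoplasmic reticulum of slow and heart muscle, and it followed the early course (chromosome 3, 102086415 to 102146514, plus strand). Saline mice held 97, 134 and 156 normalized counts, mice at 2 weeks of bleomycin 241, 330 and 554, and mice at 4 weeks 286, 485 and 961. It had come most of the way back by recovery, with 145, 241 and 415 at 6 weeks and 157, 230 and 366 at 10 weeks. The bleomycin and the 10-week recovery groups did not overlap with saline, and at 6 weeks of recovery the lowest mouse did. Its differences from saline were 1.41 ± 0.20, 2.10 ± 0.20, 0.86 ± 0.23 and 0.81 ± 0.21 (0.71 without mouse 2).

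The slow myosin chains took another course and were highest after recovery. Myh7 encodes the slow heavy chain, the motor of slow fibres (chromosome 14, 54970684 to 54994626, GRCm38, minus strand, ENSMUSG00000053093.13). Its counts were 0.939, 18.3 and 206 in saline mice, 0, 11.3 and 92 at 2 weeks of bleomycin and 20.5, 81.8 and 389 at 4 weeks. They reached 183, 576 and 801 at 6 weeks of recovery and 99.3, 312 and 7898 at 10 weeks, or 1633 at the highest without mouse 2. Saline mice themselves spread widely, and the highest of them overlapped every other group. The difference from saline was -0.43 ± 0.83 after 2 weeks of bleomycin and 2.41 ± 0.83 after 4 weeks, then 4.90 ± 0.95 with 6 weeks of recovery and 4.97 ± 0.88 with 10 weeks (4.40 without mouse 2). The 4-week difference was 1.45 in both edgeR and DESeq2 on the recovered reads, and neither called it.

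Myl2 encodes the regulatory light chain that sits on the slow heavy chain (chromosome 5, 122100951 to 122113472, plus strand). Normalized counts were 2.58, 23.7 and 98.1 with saline, 2.18, 11.7 and 35.5 at 2 weeks of bleomycin and 3.15, 37.3 and 98.3 at 4 weeks. At 6 weeks of recovery they were 75.1, 186 and 330 and at 10 weeks 46.1, 124 and 2741 (583 without mouse 2). The bleomycin groups reached no higher than 98.3, against 98.1 in the highest saline mouse. Myl2 differed from saline by -0.87 ± 0.63, 0.63 ± 0.63, 3.0 ± 0.73 and 3.32 ± 0.67, the last being 2.79 without mouse 2.

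Myl3, the slow essential light chain (chromosome 9, 110741861 to 110769798, plus strand), was the scarcest of the 9 in read counts, with no more than 3 reads in 6 of 10 saline mice and in 6 of 10 mice at 2 weeks of bleomycin. Counts were 0, 3.75 and 26.2 with saline, 0.956, 2.16 and 10.6 at 2 weeks and 3.91, 19.5 and 78.6 at 4 weeks of bleomycin. They were 15.4, 66.7 and 149 at 6 weeks of recovery and 14.2, 29.7 and 1526 at 10 weeks (277 without mouse 2). Every recovery mouse lay above the saline median, and the ranges overlapped. Differences from saline were -0.65 ± 0.65, 1.71 ± 0.65, 3.27 ± 0.76 and 3.47 ± 0.69 (2.82 without mouse 2), and at 4 weeks of bleomycin the call was lost in 3 of the alternatives, among them edgeR.

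**Figure D2:**
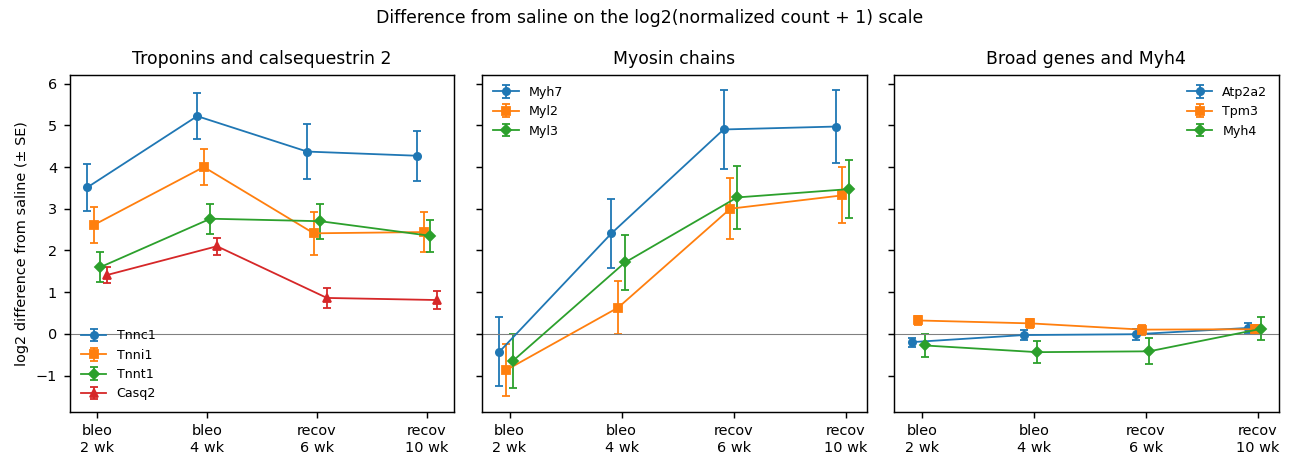
Difference from saline on the log2(normalized count + 1) scale with its SE, for 4 groups, in 3 panels of genes. The troponins and Casq2 stand at their highest after 4 weeks of bleomycin (Tnnc1 at 5.22), the myosin chains after recovery (Myh7 at 4.97 at 10 weeks), and Atp2a2, Tpm3 and Myh4 stay within 0.44 of saline.

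Atp2a2 and Tpm3 did not behave as the slow label would have it. Atp2a2 encodes the SERCA2 calcium pump, of which one isoform belongs to slow and heart muscle and another to most cells (chromosome 5, 122453513 to 122502225, minus strand). It was abundant throughout, with medians of 3322, 2834, 3192, 3258 and 3166 normalized counts from saline to 10 weeks of recovery. Its differences from saline lay between -0.20 ± 0.11 at 2 weeks and 0.14 ± 0.12 at 10 weeks, and the latter was -0.03 without mouse 2. Tpm3 encodes slow tropomyosin as well as cytoplasmic tropomyosins of many cell types (chromosome 3, 90072649 to 90100902, plus strand), and gene counts do not separate the isoforms of either gene. Its medians were 2846, 3574, 3515, 3168 and 2914, and its differences from saline 0.32 ± 0.10, 0.25 ± 0.10, 0.10 ± 0.12 and 0.11 ± 0.11 (0.01 without mouse 2), all under the fold of 1.5 that a call required.

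Counted together, 4 of the 9 genes met the criteria of a call (fold above 1.5 and adjusted p below 0.05 in limma) as higher after 2 weeks of bleomycin, against 9.3% of all genes tested. They were Tnnc1, Tnni1, Tnnt1 and Casq2. After 4 weeks 6 of 9 were higher (10.5% of all genes), with Myh7 and Myl3 added. At 6 weeks of recovery 7 of 9 were higher (3.33% of all genes) and at 10 weeks 7 of 9 (2.05%), in each case all but Atp2a2 and Tpm3. No gene of the list was called lower than saline in any group, where 7.43%, 7.37%, 1.71% and 0.998% of all genes were. The median difference over the 9 was 0.32, 2.10, 2.70 and 2.44, beside 0.00 over all genes. Groups lay wholly above saline for 2 of the genes at 2 weeks (3.44% of all genes), 4 at 4 weeks (4.31%), 2 at 6 weeks (1.41%) and 2 at 10 weeks (0.282%). Since the list was chosen on its recovery values, nothing is read from these counts.

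Between 2 and 4 weeks of bleomycin, the comparison that the choice of the genes did not use, all members but Tpm3 were higher on average at 4 weeks and 4 passed the test, against 1.49% of all genes called higher. Myl3 rose by 2.36 ± 0.65 (limma, adjusted p = 0.0245), Myh7 by 2.84 ± 0.83 (limma, adjusted p = 0.0318), Casq2 by 0.70 ± 0.20 (limma, adjusted p = 0.0315) and Tnnt1 by 1.16 ± 0.36 (limma, adjusted p = 0.0486). Myl3 and Myh7 are myosin chains, Casq2 stores calcium and Tnnt1 is a troponin. Tnni1 differed by 1.39 ± 0.44 and Tnnc1 by 1.70 ± 0.56, and neither passed (limma, adjusted p = 0.0515 and 0.062). Myl2 differed by 1.5 ± 0.63, Atp2a2 by 0.18 ± 0.11 and Tpm3 by -0.08 ± 0.10, also short of the test (limma, adjusted p = 0.153, 0.384 and 0.72). For none of the 9 did all mice at 4 weeks lie above all mice at 2 weeks (0.106% of all genes). Across the alternatives the limma, edgeR or DESeq2 adjusted p of Myl3 stayed between 0.00315 and 0.0407, while that of Myh7 ran to 0.0597, Tnnt1 to 0.0742 and Casq2 to 0.0934. For Tnni1 and Tnnc1 the limma, edgeR or DESeq2 adjusted p ran from 0.0145 to 0.0802 and from 0.00265 to 0.189. Both genes were below 0.05 in edgeR and in DESeq2 with all mice. Which genes passed thus depended on the fit. Without 10-week mouse 2, which enters the shared estimate of the spread, 6 of the 9 were called. The share of all genes called in that fit is not given here, and the 1.49% belongs to the fit with the mouse. In the same comparison 3 of 11 genes of regenerating or denervated muscle rose, Myh8 by 1.67 ± 0.35, Chrnd by 1.17 ± 0.28 and Ncam1 by 0.82 ± 0.19 (limma, adjusted p = 0.00325, 0.0107 and 0.00876). Myl4, of the heart list, rose by 1.17 ± 0.27 (limma, adjusted p = 0.00631). None of the fast fibre, shared sarcomere, other slow programme, smooth muscle, fat cell or hair follicle genes was called in limma. All these marker lists were chosen with results of these data known, so their p-values describe the fit.

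Values in the 6-week recovery group against the 4-week bleomycin group are a description, since the choice of the genes used the recovery levels. Myh7 was higher by 2.49 ± 0.95 and Myl2 by 2.37 ± 0.73, which met the criteria of a call, as did 4.8% of all genes in that direction. Tnni1, with a difference of -1.59 ± 0.51, and Casq2, with -1.24 ± 0.23, met them as lower, as did 7.14% of all genes. Myl3 differed by 1.55 ± 0.76 and Tnnc1 by -0.85 ± 0.65, and neither was called. Myh7 no longer met the criteria in 5 of the alternatives, including a pseudocount of 0.1 and DESeq2. Between 10 and 6 weeks of recovery none of the 9 was called in limma (0.088% of all genes were, in either direction), with differences from -0.35 ± 0.44 for Tnnt1 to 0.32 ± 0.76 for Myl2. Without mouse 2 all 9 differences were below 0, from -0.73 ± 0.39 for Tnnt1 to -0.02 ± 0.09 for Atp2a2, and those of Myh7, Myl2, Myl3, Tnni1, Atp2a2 and Tpm3 had turned sign, the first 4 to -0.50, -0.21, -0.44 and -0.44. In edgeR, with all mice, Tnnc1 and Tnnt1 turned the other way, to 0.92 and 0.20.

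Pairs of genes were also compared within single mice. The log2 level of Myh7 minus that of Tnnc1 had a median of 1.18 in saline mice, -3.16 at 2 weeks and -1.38 at 4 weeks of bleomycin, and 1.71 and 1.95 at 6 and 10 weeks of recovery. The highest bleomycin mouse stood at 0.42 and the lowest recovery mouse at 0.72, so that bleomycin and recovery mice did not overlap in this pair. Myl2 minus Tnni1 gave the same order, with medians of 1.00, -2.98, -2.44, 1.13 and 1.52. For that pair the highest bleomycin mouse was at -1.19 and the lowest recovery mouse at 0.60. Casq2 minus Myl3 had medians of 4.49, 6.47, 4.48, 1.72 and 2.55, and here the groups overlapped, with the lowest mouse at 4 weeks of bleomycin at 3.59 and the highest at 10 weeks of recovery at 3.75. Saline mice ranged from -1.93 to 2.47 for the first pair and from -2.76 to 2.93 for the second. These pairs were formed after the levels were seen and were not tested.

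**Figure D3:**
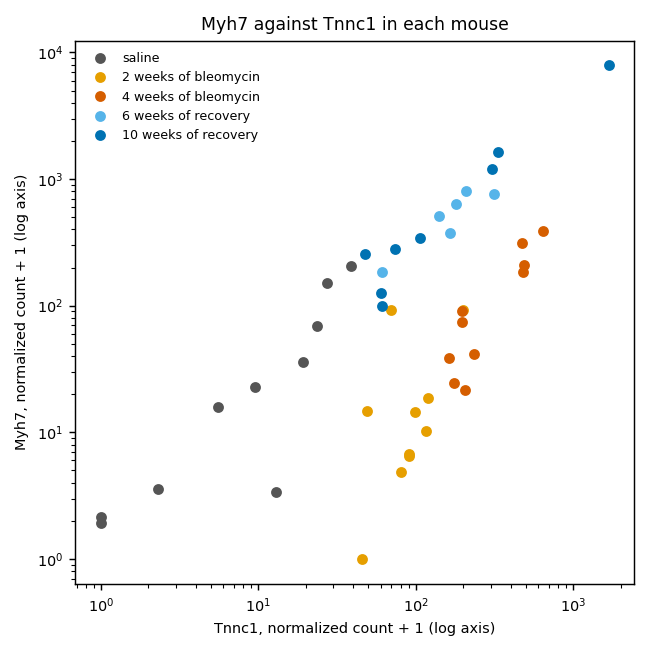
Myh7 against Tnnc1 in each of the 44 mice, as normalized count plus 1 on log axes, coloured by group. At a like level of Tnnc1 the bleomycin mice lie below the recovery mice, and mouse 2 of the 10-week group is at the top right with 1687 for Tnnc1 and 7898 for Myh7.

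Myh4, the fast heavy chain, spread over a wider fold range in the saline and bleomycin groups than in the recovery groups, and none of its differences from saline passed the test. Its normalized counts were 15870, 58516 and 82770 with saline, 9764, 43954 and 72874 at 2 weeks and 16102, 37988 and 53571 at 4 weeks of bleomycin. They were 31117, 36043 and 40734 at 6 weeks of recovery and 38657, 54484 and 74572 at 10 weeks. The ranges overlapped throughout. Differences from saline were -0.28 ± 0.27, -0.44 ± 0.27, -0.42 ± 0.31 and 0.12 ± 0.28 (limma, adjusted p = 0.448, 0.199, 0.412 and 0.895), and the last was 0.09 without mouse 2. A difference in muscle share within these errors was not detectable.

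Set against Myh4 of the same mouse, with all mice kept, the calls against saline stayed nearly the same. The 4 calls between 4 and 2 weeks of bleomycin were lost. Relative to Myh4, 4 of 9 were called higher than saline after 2 weeks (8.71% of all genes so measured), 6 after 4 weeks (16.4%), 7 in the 6-week recovery group (3.04%) and 6 in the 10-week group (0.135%). The genes called were those called by level, except that Casq2 dropped out at 10 weeks with 0.70 ± 0.35 (0.63 without mouse 2). Tnnc1 relative to Myh4 differed from saline by 3.79 ± 0.57, 5.66 ± 0.57, 4.8 ± 0.66 and 4.15 ± 0.61, and Myh7 by -0.15 ± 0.77, 2.86 ± 0.77, 5.32 ± 0.89 and 4.85 ± 0.82. The median over all genes so measured was 0.28, 0.44, 0.42 and -0.12. Part of each difference relative to Myh4 is thus the shift of Myh4 itself. At 6 weeks of recovery the fast counterparts of the slow genes also stood above saline relative to Myh4. They ran from 0.42 ± 0.29 for Casq1 to 0.78 ± 0.29 for Myl1, and none was called. Myh1, at 1.56 ± 0.39, was called. Myh4 and the other fast genes therefore did not move alike, and values relative to Myh4 are not values relative to all fast muscle genes. Without mouse 2 the 10-week count was 3, namely Tnnc1 at 3.69, Myh7 at 4.32 and Myl2 at 2.71, whereas Tnni1, Tnnt1 and Myl3 lost their calls at 1.89, 1.88 and 2.74. The 0.135% belongs to the fit with mouse 2, and the share without it is not given here. Between 4 and 2 weeks of bleomycin none of the 9 passed relative to Myh4, with adjusted p of 0.109 for Myl3 and Myh7 (limma) at differences of 2.53 ± 0.65 and 3.01 ± 0.77. In that comparison 0.0587% of all genes were called higher, while with Myh4 as a covariate instead 5 of the 9 were called, against 1.95% of all genes. In the 6-week recovery group against the 4-week bleomycin group Myl2 was called higher (1.48% of all genes) and Casq2 lower (2.16%), by 2.35 ± 0.70 and -1.26 ± 0.38. None was called between 10 and 6 weeks of recovery in limma, nor was any other gene (0%).

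Most of the other fast genes moved little, and the calls against saline in limma fell on Myh1 and Pvalb. Of 14 fast fibre genes none was called at 2 weeks in limma and 1 in DESeq2, and their median difference from saline was -0.04, then 0.00 at 4 weeks, 0.23 at 6 weeks and 0.26 at 10 weeks. Myh1, the heavy chain of the intermediate fast fibres, rose by 0.69 ± 0.26 at 4 weeks of bleomycin and by 1.14 ± 0.30 at 6 weeks of recovery (limma, adjusted p = 0.0314 and 0.0107). At 10 weeks it differed by 0.86 ± 0.27 (limma, adjusted p = 0.0499), a call lost without mouse 2. Pvalb, the calcium buffer of fast fibres, fell by 0.91 on the log2 scale at 4 weeks (limma, adjusted p = 0.000621). The fast fibre list was also chosen with results of these data known, so these p-values describe the fit.

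Per length of transcript, the slow forms remained a small share of each pair of slow and fast copies. Tnnc1 made up a median of 0.118% of Tnnc1 plus Tnnc2 in saline mice, 0.759% at 2 weeks, 2.5% at 4 weeks, 1.25% at 6 weeks and 0.525% at 10 weeks (0.52% without mouse 2). Casq2, of Casq2 plus Casq1, went through medians of 1.89%, 6.27%, 10.5%, 3.73% and 3.29%. Troponin and calsequestrin shares were thus highest after 4 weeks of bleomycin. Tnni1 of Tnni1 plus Tnni2 had medians of 0.0921%, 0.52%, 1.28%, 0.387% and 0.226%. Tnnt1 of Tnnt1 plus Tnnt3 had medians of 0.412%, 1.08%, 2.87%, 2.08% and 1.1%.

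The myosin shares peaked at 6 weeks of recovery. Myh7 held a median of 0.0369% of the summed heavy chains Myh7, Myh2, Myh1 and Myh4 in saline mice, 0.0132% and 0.131% at 2 and 4 weeks of bleomycin, and 0.813% and 0.372% at 6 and 10 weeks of recovery (0.36% at 10 weeks without mouse 2). Myl2 of Myl2 plus Mylpf gave 0.108%, 0.0485%, 0.202%, 0.869% and 0.557%, and Myl3 of Myl3 plus Myl1 gave 0.055%, 0.0269%, 0.256%, 0.661% and 0.399%. At 6 weeks of recovery the lowest mouse had 0.33% Myh7, above the highest saline mouse at 0.263%. At 10 weeks the lowest had 0.131%, within the saline range, and the Myh7 counts themselves overlapped saline in both recovery groups. These shares rest on the recovery values with which the genes were chosen, so nothing is read from them. Among the same heavy chains Myh4 held medians of 77.8%, 71.1%, 63.2%, 51.7% and 66%, and Myh1 21.9%, 28.8%, 36.5%, 47.2% and 33.4%. Atp2a2 of Atp2a2 plus Atp2a1 stayed at 3.91%, 4.08%, 4.15%, 3.68% and 3.72%. Of the 700 exon bases of Tnnc2, 592 overlap Ube2c on the other strand, so its level is uncertain. Smaller parts of other fast genes in these shares also overlap genes on the other strand. These are 763 of 3477 exon bases of Atp2a1, 515 of 6087 of Myh1, 237 of 6083 of Myh2 and 156 of 1847 of Casq1.

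**Figure D4:**
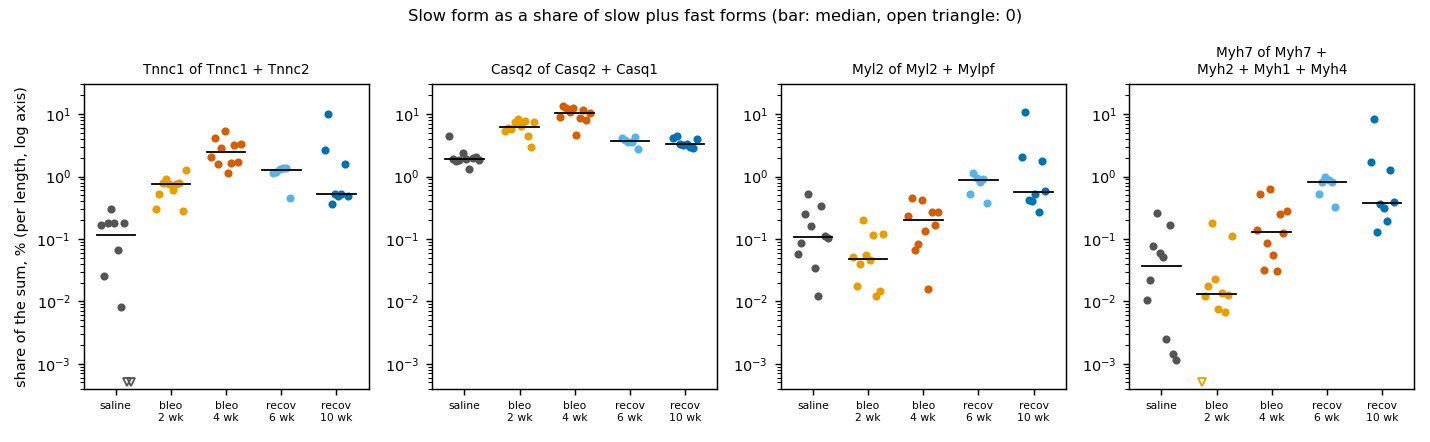
Slow form as a percentage of slow plus fast forms, per transcript length and on log axes, in each mouse, with group medians as bars and mice at 0 as open triangles at the bottom. Shares of Tnnc1 and Casq2 have their highest median after 4 weeks of bleomycin (2.5% and 10.5%), those of Myl2 and Myh7 at 6 weeks of recovery (0.869% and 0.813%).

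Mouse 2 at 10 weeks of recovery held another balance of slow and fast genes. Its Myh7 count of 7898 was 28.1 times the median of the other 7 mice of its group, Myl3 at 1526 was 62.5 times, Tnnc1 at 1687 was 23 times, Myl2 at 2741 was 23 times, Tnni1 at 776 was 16.4 times and Tnnt1 at 2237 was 9.27 times. Even Atp2a2, at 8093 against a median of 3158, stood above all 43 other mice. The fast genes stood nearer to the other mice of the group. Myh4 was 60308, or 1.14 times their median, and the other 9 fast genes compared ran from 0.827 times for Myh1 to 1.39 times for Casq1. Myh2 was 1.32 times their median, and 2 of the other 43 mice were at or above it. Myh7 accounted for 8.45% of the summed heavy chains there, against 1.74% in the next mouse of the group. Casq2, at 366, was 1.72 times the median, and 14 other mice matched or exceeded it.

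Within groups the slow troponins and myosin chains varied together. Over the 44 mice, deviations of the log2 level from the group mean had a Pearson r of 0.86 between Tnni1 and Tnnc1, 0.83 between Myh7 and Tnnc1, and 0.84 between Myl3 and Tnnt1. Without mouse 2 these were 0.82, 0.80 and 0.79. Atp2a2 went with them (0.56 to 0.76 with the troponins and myosin chains, and 0.42 to 0.69 without mouse 2). Tpm3 did not follow all of them, with 0.06 for Myl2 and -0.11 for Casq2 (-0.19 and -0.28 without mouse 2). Myh4 had r between -0.16 and 0.02 with all of them but Tpm3, where it was -0.39, and 0.66 with the fast gene Tnnc2. Casq2 had r = 0.39 with Tnnc2. These values are descriptive, and mice share library preparation and normalization.

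**Figure D5:**
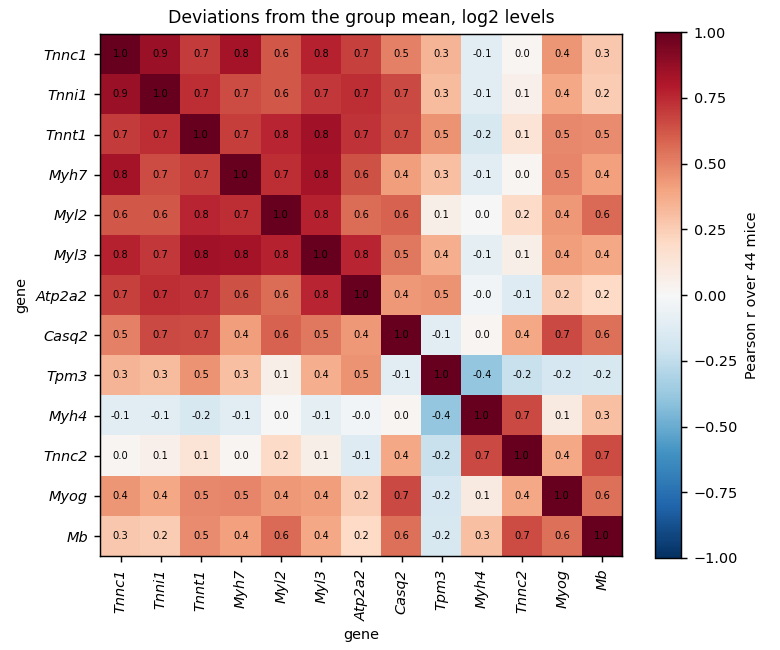
Pearson r over 44 mice between log2 levels after subtracting each group's mean, for the 9 slow genes, the fast genes Myh4 and Tnnc2, Myog and Mb. Slow troponins and myosin chains form a block (0.86 for Tnni1 with Tnnc1), while Myh4 is near 0 with them and 0.66 with Tnnc2.

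Other genes of the slow programme, and the lists that follow, were also chosen with results of these data known, so their p-values, adjusted over all genes tested, describe the fit and support nothing about the 9. Of 11 slow programme genes 7 rose and 1 fell after 2 weeks (9.3% and 7.43% of all genes), and 7 rose after 4 weeks (10.5%). In recovery 8 rose at 6 weeks (3.33%) and 7 at 10 weeks (2.05%), or 6 without mouse 2. Mb, the oxygen store myoglobin, rose by 0.94 ± 0.19, 0.90 ± 0.19, 1.57 ± 0.22 and 1.55 ± 0.20 (limma, adjusted p = 8.2e-05, 0.000154, 2.98e-06 and 1.9e-06), the last being 1.48 without mouse 2. Sln, the sarcolipin that restrains SERCA, rose most under bleomycin, by 1.69 ± 0.23 and 1.98 ± 0.23 (limma, adjusted p = 8.83e-08 and 2.33e-09), and it rose in both recovery groups as well. Csrp3, a stretch-related Z-disc protein, passed in both recovery groups, with 1.49 ± 0.32 and 0.94 ± 0.29 (limma, adjusted p = 0.00182 and 0.0433), and without mouse 2 the latter did not (0.91, limma, adjusted p = 0.073). Myoz2, Ankrd2 and Actn2 rose in all 4 groups, Pln and Myom3 in 3 and 2 of them and Esrrg in 2. Myh7b, a heavy chain gene related to Myh7, fell by 1.2 on the log2 scale at 2 weeks (limma, adjusted p = 0.00535). It had no more than 3 reads in 5 of 10 saline mice and in all 10 mice at 2 weeks. Its fold is therefore set in part by the added count of 1. Of 8 sarcomere genes shared by all fibres 4 rose in each group, Ttn and Tcap each time (3 at 10 weeks without mouse 2), while Acta1, the main muscle actin, differed by no more than 0.22 ± 0.22 (limma, adjusted p = 0.58).

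Genes of regenerating or denervated muscle mark new or nerve-deprived fibres. Of 11 tested, 9 rose after 2 weeks (9.3% of all genes) and 10 after 4 weeks of bleomycin (10.5%). At 6 weeks of recovery 6 were higher (3.33%) and at 10 weeks 4 were (2.05%), all in limma. Myog, the factor of muscle differentiation, rose by 2.75 ± 0.28, 3.09 ± 0.28, 2.18 ± 0.32 and 1.56 ± 0.30, and Chrna1, the acetylcholine receptor subunit that spreads over denervated fibres, by 2.88 ± 0.16, 3.28 ± 0.16, 0.93 ± 0.19 and 0.79 ± 0.17. Without mouse 2 the 10-week values were 1.62 for Myog and 0.72 for Chrna1. Myh8, the perinatal heavy chain, rose by 2.23 ± 0.35 and 3.90 ± 0.35 under bleomycin and by 1.22 ± 0.41 at 6 weeks of recovery (limma, adjusted p = 1.92e-06, 3.54e-12 and 0.0493). The summed level of the list ran from 787 to 1274 in saline mice, 1515 to 4104 at 2 weeks, 2295 to 8663 at 4 weeks, 1121 to 2044 at 6 weeks and 1142 to 1641 at 10 weeks. Myl4, an embryonic and atrial light chain, rose by 2.92 ± 0.27, 4.10 ± 0.27 and 1.36 ± 0.31 and was 0.85 ± 0.28 at 10 weeks (limma, adjusted p = 0.0647), or 0.88 without mouse 2. Tnnt2, the heart and embryonic troponin T, rose by 0.82 ± 0.25 at 4 weeks (limma, adjusted p = 0.00934). Their part, and that of the regeneration genes, in the levels of the slow genes was not tested.

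Other tissues of the biopsy moved as well. Of 6 fat cell genes 4 fell after 2 weeks (7.43% of all genes) and 3 after 4 weeks (7.37%), among them Lep. Their summed level ran from 9615 to 22667 in saline mice and from 6214 to 18781 at 2 weeks. All 6 growing hair follicle genes tested fell at both bleomycin times, with sums of 1960 to 202256 in saline mice and 79.2 to 1661 at 2 weeks. Against saline neither list held a call in recovery (limma). From the 4-week bleomycin group to the 6-week recovery group all 6 hair follicle genes and 3 of 6 fat cell genes rose (4.8% of all genes). Among 5 smooth muscle genes 1, Smtn, fell at 2 weeks. Their part in the slow gene levels was not tested.

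Over the 44 mice, the genes whose log2 level went most closely with the mean of the 7 muscle-restricted slow genes, among 12631 genes ranked, were Col8a1 (Pearson r = 0.79), Myoz2 (0.79), C1qtnf3 (0.74), Adprhl1 (0.74) and Mb (0.73). For Tnnc1 alone they were Ankrd1 (0.86), Col8a1 (0.85), Adprhl1 (0.81), Gria3 (0.79) and Lrrn1 (0.79). Ankrd1, a stress-induced sarcomere protein, had medians of 29.8 normalized counts with saline, 302 and 530 under bleomycin and 309 and 124 in recovery. Col8a1, a short-chain collagen of the matrix, had medians of 82.2, 264, 544, 562 and 353. The groups themselves contribute to these values.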

How the data were processed

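Skin RNA of 44 mice was sequenced after TruSeq stranded mRNA preparation. Per the labels and methods, the authors aligned reads to mm10 with STAR 2.4.0 and deposited a signal table, gene counts divided by one DESeq2 1.12.3 size factor per mouse. How reads were assigned to genes, with which strand setting and annotation, is not given in the sources used here. Of 43411 IDs, 98.9% had a symbol. Whole reads were recovered from the deposited values (100% whole within 0.001). Positions and lengths came from GENCODE M21 on GRCm38, and upstream sequences from RefSeq.

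The values were log2 transformed with a pseudocount of 1, and 17037 genes with a mean above 3 were fitted in limma 3.58.1 (R 4.3.3) with a mean-variance trend over all 44 mice. A gene was called at a fold above 1.5 and a Benjamini-Hochberg adjusted p below 0.05. A further fit used the same values minus that of Myh4 in each mouse (17036 genes). The scripts were tested on simulated data. Genes named were the 9 slow genes, Myh4, the fast counterparts, per marker list the most abundant gene and genes called in at least 2 of 4 comparisons with saline (those not printed are covered by the counts), and the 5 genes most like the slow genes or Tnnc1. The slow genes and the marker lists were chosen with earlier results of these data known. Alternatives were a pseudocount of 0.1, no filter or a filter of 10 counts in 6 mice, quantile and TMM scaling, fits of only the compared groups, a replicate block, edgeR 4.0.16 and DESeq2 1.42.0 on recovered reads, no fold threshold, other uses of Myh4, and leaving out saline mouse 1 with 2-week mouse 2 (the set whose omission came nearest to mean counts the study lists) or 10-week mouse 2. The last was chosen after seeing the data. No sequencing batch is given in the labels, and mice are separate animals.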

Additional observations from a re-analysis of the deposited data

Results flagged for a closer look

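In groups of this size, 50 sets of values (the 9 slow genes and Myh4 in 5 groups) were examined for a sample far from the others, and 12 held one. The rule was applied to normalized counts without a log. Its rate of about 1 in 20 holds for independent sets of normally distributed values. These sets share mice and hold genes that vary together, so the 12 are not set against that rate. Of the 12, 8 were mouse 2 at 10 weeks of recovery, which was highest of its group for Tnnc1 (1687 normalized counts), Tnni1 (776), Tnnt1 (2237), Myh7 (7898), Myl2 (2741), Myl3 (1526), Atp2a2 (8093) and Tpm3 (5248). Among genes outside the list with a mean of 50 or more (12631), the gene that stood furthest above the other 43 mice in this mouse was Ildr2, at 207 against a highest value of 121 elsewhere, followed by Pla1a at 613 against 386.

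The other 4 were single genes in single mice. Tnnc1 was 198 in mouse 10 at 2 weeks of bleomycin, above the next at 119. Tnnt1 was 163 in saline mouse 8, above the next at 96.5. Tpm3 was 6322 in mouse 2 at 2 weeks of bleomycin, above the next at 4590, and in mouse 6 at 6 weeks of recovery it was lowest at 2922.

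For 4 genes the difference from saline was larger at 4 than at 2 weeks of bleomycin (limma, adjusted p from 0.0245 to 0.0486). Saline cancels in this difference, so it is the comparison of 4 with 2 weeks given above and not a further test. The increase was 1.16 on the log2 scale for Tnnt1, 2.84 for Myh7, 2.36 for Myl3 and 0.70 for Casq2.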

How the results depend on the processing

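The number of slow genes called against saline held under every alternative to within a factor of 1.5: 4 to 5 at 2 weeks of bleomycin, 4 to 7 at 4 weeks, and 7 at 6 and at 10 weeks of recovery. For 4 against 2 weeks of bleomycin 4 were called and the alternatives gave 2 to 6. The count was 2 where no filter on low values was used. The share of all genes called higher in this comparison also moved with the fit. It was 1.49% by level, 0.0587% relative to Myh4 and 1.95% with Myh4 as a covariate. Shares for the other alternatives are not given here. The counts under the alternatives therefore describe the fits, and nothing is read from them about the slow genes. Relative to Myh4, leaving out mouse 2 at 10 weeks brought the count against saline at 10 weeks of recovery from 6 to 3. In the same measure, 4 against 2 weeks went from 0 to 1 with the mean of the fast fibre genes in place of Myh4 and to 5 with Myh4 as a covariate, and 6 weeks of recovery against 4 weeks of bleomycin went from 2 to 4 with the covariate and to 1 with a pseudocount of 0.1. The cause was not tested. Of 1134 single differences under the alternatives, 25 gained a call and 25 lost one. A further 40 turned sign, 0 of them called before or after, and 20 of these were between 10 and 6 weeks of recovery. For 4 against 2 weeks Tpm3 turned from -0.08 to 0.01 without saline mouse 1 and 2-week mouse 2, and relative to Myh4 from 0.09 to -0.04 with the mean of the fast genes and to -0.10 with the covariate. With the replicate number as a block the counts were 4, 6, 7 and 7 against saline, 5 for 4 against 2 weeks, 3 for 6 weeks of recovery against 4 weeks of bleomycin and 0 between recovery groups. The numbers do not pair the mice, which are separate animals: 18 of 78 same-number pairs correlated above 0.1, and 4 mice correlated best with their own number. Myl3, and Myh7 in saline and at 2 weeks, rest on few reads, so small differences there were not detectable at this depth.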
